A study of Homo sapiens with 4 samples.

Results

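The genes described here were PLA2G16 and 9 further genes of the prostaglandin pathway, PLA2G4A, PLA2G6, PTGS1, PTGS2, PTGES, PTGES2, PTGES3, PTGER4 and HPGD. They were 10 of the 63677 genes in the table and were found by symbol, each with 1 entry. PLA2G16 was picked because it was higher after AXL knockdown, so its values are given as a description with no test. The other 9 genes were taken as the pathway that surrounds a phospholipase, with earlier results of these data known. All 10 passed the filter on low counts.

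The cells were MDA-MB-231, an established human line of triple-negative breast cancer with high levels of the receptor tyrosine kinase AXL. They received either a control siRNA (siCt) or a commercial siRNA pool directed at AXL (siAxl), with no drug in either group, and RNA-seq was performed on 2 libraries per group to ask which genes respond to loss of AXL. The siRNA sequences, the time after transfection and whether the 2 libraries of a group came from separate cultures are not given in the sources used here, so p-values measure the spread between these libraries, which may be technical. One line and one pool of siRNAs were used, so that effects of AXL and of the pool on other transcripts cannot be told apart.

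The libraries held between 39574387 and 44585773 reads assigned to genes. Values are normalized counts, that is, reads per gene divided by the size factor of the library. AXL, the targeted gene, had 29189 and 30617 normalized counts in the siCt libraries and 8658 and 7141 in the siAxl libraries, and its level in siAxl was 26.4% of that in siCt. VIM and CD44, which mark these cells, were at 33968 normalized counts or more in every library, and the hormone receptor genes ESR1 and PGR were at 3.25 or less. ERBB2 (2949 to 3680 normalized counts) and EPCAM (565 to 771) were not low in RNA, although the markers set for this line called for low levels. Per kilobase of exon, averaged over all libraries, they were above 62.2% and 57.6% of the genes that passed the filter. Their protein was not measured in these libraries. ERBB2 rose (log2 fold change 0.26, limma adjusted p = 0.0258). CDH1, the epithelial cadherin, was low and fell, with 90.1 and 94.3 normalized counts in siCt and 36.9 and 22.6 in siAxl (log2 fold change -1.64, limma adjusted p = 0.00847). The 8 markers of leukocytes and endothelium summed to 83.4 and 92.1 normalized counts in siCt and 110 and 134 in siAxl. Most of that sum was CD14 (69.0 to 113), and the defining markers FCER1A and PECAM1 had 0 reads in every library. The part of these marker differences in the results below was not tested.

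Prostaglandins are made in steps. A phospholipase frees arachidonic acid from membrane lipids, the cyclooxygenases PTGS1 and PTGS2 turn it into the unstable intermediate prostaglandin H2, and terminal synthases turn that into prostaglandin E2 or another prostanoid. Prostaglandin E2 leaves the cell, acts on G protein-coupled receptors such as EP4 (the product of PTGER4), and is inactivated inside cells by 15-hydroxyprostaglandin dehydrogenase (the product of HPGD). In many carcinomas high PTGS2 and low HPGD are known to raise prostaglandin E2. PLA2G16 is a phospholipase of the HRASLS family, best known in fat cells, and differs in fold and sequence from the classical phospholipases A2.

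The promoters of PLA2G16 and of the 3 genes with the clearest lower RNA levels are printed as a description. Their part in the results was not tested. Each window runs from 250 bases before the annotated start to 50 bases after it, 5′ to 3′ on the gene's own strand, from RefSeq on GRCh38.p14 (the reads were counted on GRCh37). PLA2G16, listed there as PLAAT3, and HPGD have a second annotated start that is not shown. Capitals mark matches, on either strand, to the TATA box TATAAA, the core CGTCA of the cyclic AMP response element, the GC box GGGCGG and the AP-1 site TGACTCA. The minus strand of chromosome 11 (chr11:63614388-63614687) holds the PLA2G16 window, chr1:186680374-186680673 that of PTGS2, chr9:129752993-129753292 that of PTGES and chr4:174522439-174522738 that of HPGD, all on the minus strand.
PLA2G16: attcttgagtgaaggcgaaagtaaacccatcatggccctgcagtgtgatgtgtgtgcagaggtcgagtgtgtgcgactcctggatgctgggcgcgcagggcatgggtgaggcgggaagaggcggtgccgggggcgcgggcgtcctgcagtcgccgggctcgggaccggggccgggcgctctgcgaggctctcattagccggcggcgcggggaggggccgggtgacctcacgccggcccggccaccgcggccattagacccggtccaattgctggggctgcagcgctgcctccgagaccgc
PTGS2: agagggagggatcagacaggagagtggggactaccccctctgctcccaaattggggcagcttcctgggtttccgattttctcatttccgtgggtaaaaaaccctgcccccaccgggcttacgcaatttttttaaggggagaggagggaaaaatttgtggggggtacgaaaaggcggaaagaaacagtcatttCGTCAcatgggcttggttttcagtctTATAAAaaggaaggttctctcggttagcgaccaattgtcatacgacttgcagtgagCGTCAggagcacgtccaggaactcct
PTGES: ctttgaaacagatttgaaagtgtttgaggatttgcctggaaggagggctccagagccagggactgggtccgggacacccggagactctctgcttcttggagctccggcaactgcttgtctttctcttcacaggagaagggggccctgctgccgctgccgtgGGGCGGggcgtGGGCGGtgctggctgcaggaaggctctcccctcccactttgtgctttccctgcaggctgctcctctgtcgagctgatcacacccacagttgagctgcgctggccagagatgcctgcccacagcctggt
HPGD: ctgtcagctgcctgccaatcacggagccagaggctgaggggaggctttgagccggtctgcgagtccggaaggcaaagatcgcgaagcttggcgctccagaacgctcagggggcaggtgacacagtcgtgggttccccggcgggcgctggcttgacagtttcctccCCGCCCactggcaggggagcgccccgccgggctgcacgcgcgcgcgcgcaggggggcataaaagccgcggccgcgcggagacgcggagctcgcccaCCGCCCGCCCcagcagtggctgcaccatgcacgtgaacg

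The 4 windows differed in what they held. The PTGS2 window had a TATA box starting at position -32, counted back from the start site, and CGTCA at positions -58 and 25. In the PTGES window GC boxes began at positions -89 and -78, and in the HPGD window at -85, 12 and 16, the last pair overlapping. The PLA2G16 window had no match to any of the 4 motifs. Among 27305 promoter windows of the same length, 12% held TATAAA, 25% CGTCA, 44.6% GGGCGG and 4.92% TGACTCA, counting windows with any match. A GC box is thus common, but the share of windows holding several, as those of PTGES and HPGD do, was not computed. None of the 10 windows held TGACTCA. A match describes the letters and does not show that a factor binds there.

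PLA2G16 had the largest difference among the 10 genes, but it was picked for its rise. Its difference and its rank are therefore given as a description only. It had 1477 and 1319 normalized counts in siCt and 3930 and 4115 in siAxl. Both siAxl libraries were far above both siCt libraries, as was the case, by any margin, for 30.6% of all genes tested. The mean went from 1398 ± 112 (SD, n = 2) to 4022 ± 131 (SD, n = 2), which was 2.88-fold, or 1.53 on the log2(value + 1) scale used for every log2 value here. By log2 fold change it ranked 21 from the top among the 16064 genes tested. PLA2G16 (ENSG00000176485) lies on the minus strand of chromosome 11. A gene annotated antisense to it, AP000753.1, shares 0 exon bases with it and had 0 reads in every library.

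**Figure D1:**
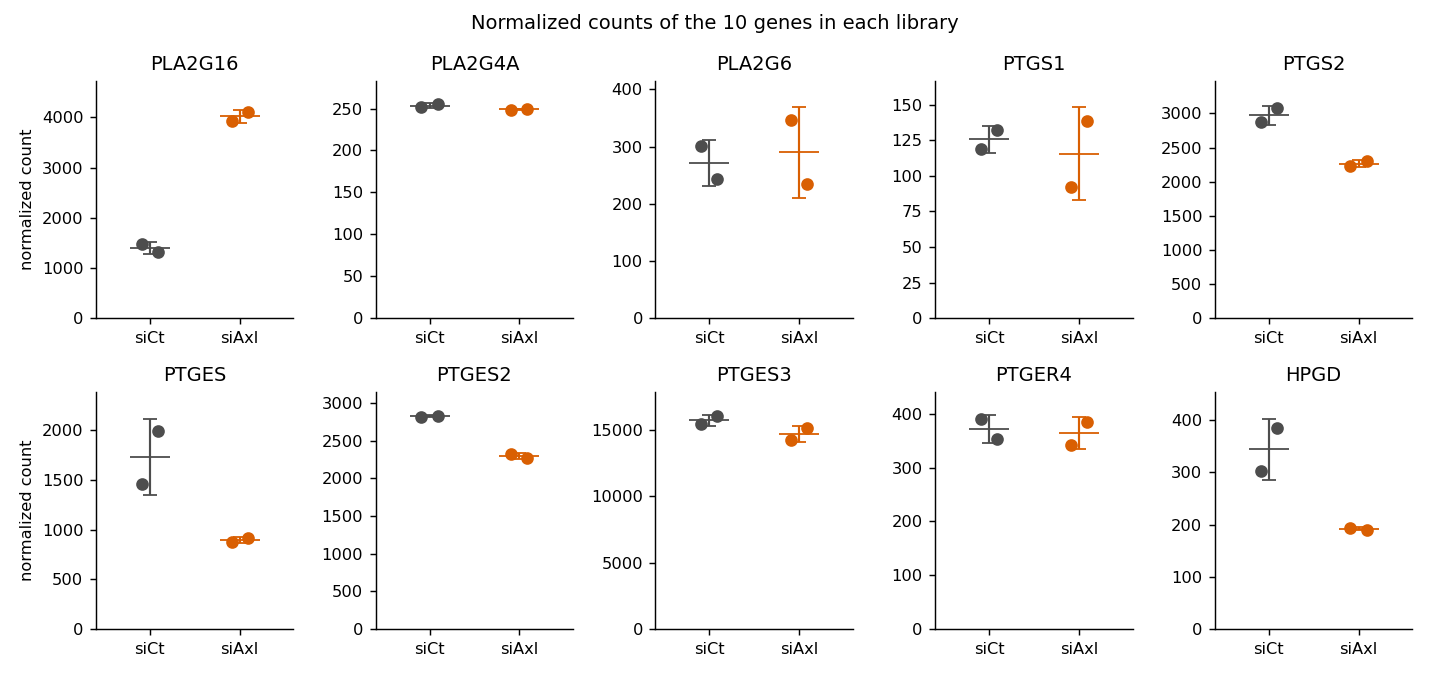
Normalized counts of the 10 genes in each library, on a linear axis from 0 for each gene. Points are libraries, the dash is the group mean and the bar its SD (n = 2). PLA2G16 is the gene with both siAxl libraries above both siCt libraries, at 3930 and 4115 against 1477 and 1319.

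No other member of the HRASLS family was called. RARRES3, a family member known as a retinoid-induced growth suppressor, had 920 and 1201 normalized counts in siCt and 953 and 1150 in siAxl. HRASLS and HRASLS5 were each under 80 normalized counts in every library, and HRASLS2 fell under the filter on low counts. Of the 3 tested family members besides PLA2G16, 0 were called at an adjusted p under 0.05 (limma, Benjamini-Hochberg over all genes tested), beside 18.7% of all genes tested. Their adjusted p ranged from 0.595 (HRASLS) to 0.983 (RARRES3), 0 had an unadjusted p under 0.05, and none was called under any of the 12 alternatives. The 95% interval of the RARRES3 log2 fold change ran from -0.34 to 0.33. Those of HRASLS (-0.72 to 0.33) and HRASLS5 (-0.63 to 0.53) were wider.

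Neither classical intracellular phospholipase among the 10 genes passed the test. PLA2G4A, the calcium-activated cytosolic enzyme regarded as the main source of arachidonic acid for prostaglandins, had 251 and 256 normalized counts in siCt and 249 and 250 in siAxl. Its 4 libraries lay close together, and its log2 fold change of -0.02 had a 95% interval from -0.27 to 0.22 (limma adjusted p = 0.893). PLA2G6, a calcium-independent phospholipase that takes part in membrane remodelling, had 300 and 243 normalized counts in siCt and 346 and 234 in siAxl. The siAxl libraries lay on both sides of the siCt libraries, and its log2 fold change was 0.08 (95% interval -0.39 to 0.54, limma adjusted p = 0.830). PLA2G6 shares 1518 of its 6758 exon bases with AL022322.2 on the opposite strand, and whether reads were counted by strand is not given in the sources used here, so its values may include reads of that gene.

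Of the cyclooxygenases, PTGS2 fell and PTGS1 did not pass the test. PTGS2, the inducible enzyme, had 2878 and 3073 normalized counts in siCt and 2229 and 2300 in siAxl. Both siAxl libraries were lower than both siCt libraries, and the mean fell from 2975 ± 138 to 2265 ± 50.4 (SD, n = 2 each), to 76.1% of the siCt level. Its log2 fold change was -0.39 (SE 0.06, limma adjusted p = 0.00823). PTGS1, the constitutive enzyme, was low, with 119 and 132 normalized counts in siCt and 92.3 and 139 in siAxl. The siAxl libraries lay on both sides of the siCt libraries, and the interval of its log2 fold change of -0.15 ran from -0.64 to 0.35 (limma adjusted p = 0.673). A fall of the size seen for PTGS2 lies inside that interval.

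Of the 3 prostaglandin E synthases 2 fell, and PTGES had the largest fall among the 10 genes. PTGES, the microsomal synthase that is induced together with PTGS2 in inflammation, had 1460 and 1999 normalized counts in siCt and 875 and 921 in siAxl. The siCt libraries differed widely and the siAxl libraries little, and the groups did not overlap. Its mean fell from 1730 ± 381 to 898 ± 32.3 (SD, n = 2 each), to 51.9%, with a log2 fold change of -0.93 (SE 0.14, limma adjusted p = 0.00675). PTGES2, a membrane-associated synthase, had 2822 and 2833 normalized counts in siCt and 2323 and 2266 in siAxl. Libraries of a group lay close together, and the fall to 81.1% gave a log2 fold change of -0.30 (SE 0.06, limma adjusted p = 0.0140). The PTGES2 call was lost without siAxl 1 (adjusted p = 0.0533) and without siAxl 2 (adjusted p = 0.0720).

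PTGES3, the cytosolic synthase that is better known as the HSP90 co-chaperone p23, had 15419 and 16015 normalized counts in siCt and 14239 and 15124 in siAxl. Both siAxl libraries were below both siCt libraries, but the log2 fold change of -0.10 did not pass the test (95% interval -0.24 to 0.04, limma adjusted p = 0.283). PTGES3 has processed pseudogenes whose reads the counting could have split with it. The pseudogene PTGES3P1 had 134, 144, 140 and 152 normalized counts in siCt 1, siCt 2, siAxl 1 and siAxl 2, and PTGES3P2, PTGES3P4 and PTGES3P5 had 0 reads.

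PTGER4, the receptor through which prostaglandin E2 raises cyclic AMP, had 390 and 353 normalized counts in siCt and 343 and 385 in siAxl. The groups overlapped, and the log2 fold change of -0.03 had an interval from -0.29 to 0.23 (limma adjusted p = 0.872). HPGD, the enzyme that inactivates prostaglandin E2, had 303 and 386 normalized counts in siCt and 194 and 191 in siAxl. Both siAxl libraries were lower than both siCt libraries, and the mean fell from 344 ± 58.5 to 192 ± 2.56 (SD, n = 2 each), to 55.9%. The log2 fold change of HPGD was -0.83 (SE 0.14, limma adjusted p = 0.0101).

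Of the 9 genes tested, 4 fell (PTGS2, PTGES, PTGES2 and HPGD), 0 rose and 5 did not pass the test. Across all 16064 genes tested, 18.7% were called in either direction, 10.8% as higher and 7.91% as lower. The share called among the 9 genes was 44.4%, and their median log2 fold change was -0.15 beside -0.002 for all genes tested. The 9 were chosen with earlier results of these data known, so this share only describes them. Of 104 other tested genes of the pathway lists described below, 17 rose and 7 fell (23.1% called). The groups did not overlap for 6 of the 9 genes, with both siAxl libraries the lower ones in each. Of all genes tested, 61.2% did not overlap in either direction, and 30.5% had both siAxl libraries lower. Enzymes that make and an enzyme that breaks down prostaglandin E2 were thus among the genes that fell. In bulk RNA fewer cells with a transcript and less RNA per cell cannot be told apart, and neither protein nor prostaglandin was measured in these libraries.

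**Figure D2:**
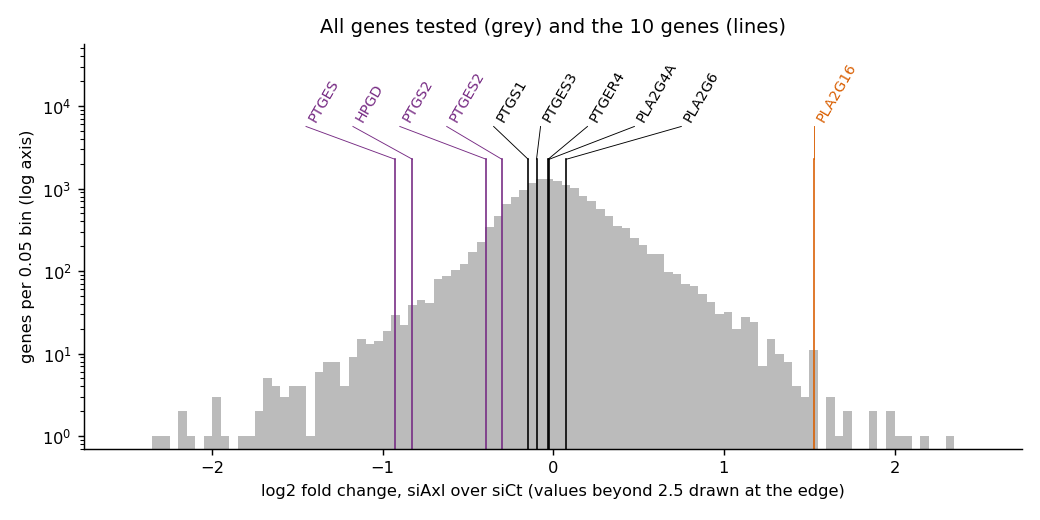
Histogram of the log2 fold change of siAxl over siCt for the 16064 genes tested (grey, number of genes on a log axis), with a line at each of the 10 genes. PLA2G16 sits at 1.53 in the right tail, and PTGES (-0.93), HPGD (-0.83), PTGS2 (-0.39) and PTGES2 (-0.30), the called genes, are drawn in purple.

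Levels of different genes were compared as normalized counts per kilobase of exon. In siCt, PTGES3 was highest at 4624 ± 124 (SD, n = 2) per kilobase, and PTGES2 (930 ± 2.65) and PTGES (912 ± 201) followed with overlapping libraries. PTGS2 (565 ± 26.2) and PLA2G16 (449 ± 35.9) came next, and their libraries did not overlap. A wide gap separated these 5 genes from PTGER4 (93.8 ± 6.61), PLA2G4A (88.2 ± 1.10), HPGD (62.3 ± 10.6), PLA2G6 (40.2 ± 6.01) and PTGS1 (21.7 ± 1.62 per kilobase). Apart from PTGES2 and PTGES, no neighbours in the siCt order overlapped.

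In siAxl, PLA2G16 stood above PTGES2, PTGES and PTGS2, at 1291 ± 42.1 per kilobase, behind PTGES3 (4319 ± 184) only. PTGES2 (755 ± 13.3), PTGES (474 ± 17.0) and PTGS2 (430 ± 9.57) followed, with no overlap between neighbours. Among the lower genes PTGER4 (91.9 ± 7.56) overlapped PLA2G4A (86.7 ± 0.233) and PLA2G6 (42.9 ± 11.7) overlapped HPGD (34.8 ± 0.463 per kilobase). Averaged over all 4 libraries, PLA2G16 had a higher level per kilobase than 84.3% of the genes tested. That share was 18.7% for PTGS1 and 98.2% for PTGES3.

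**Figure D3:**
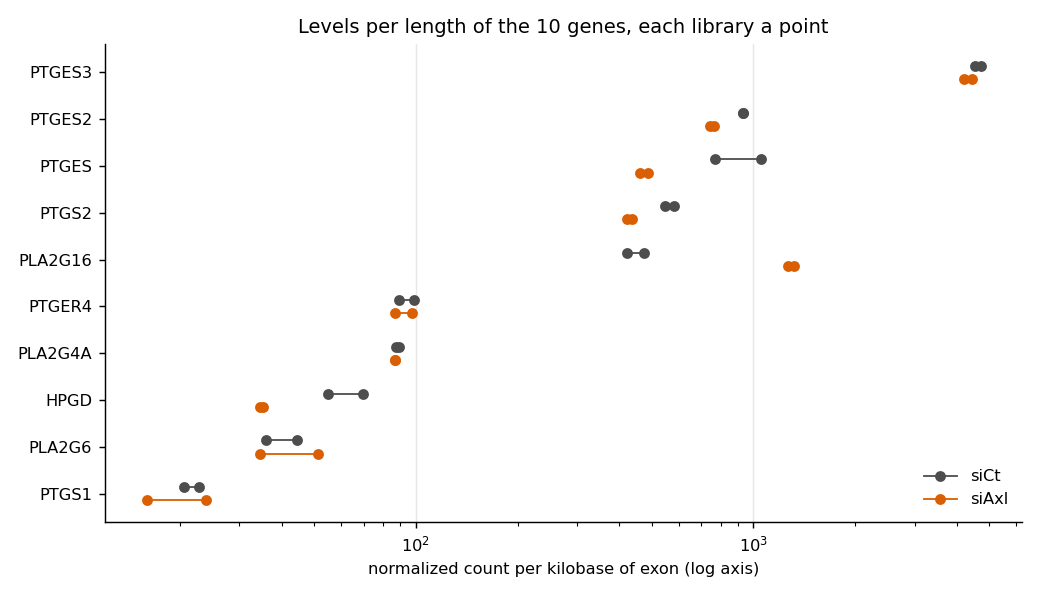
Normalized counts per kilobase of exon of the 10 genes on a log axis, ordered by their siCt mean, with each library as a point and a line joining the libraries of a group (siCt grey, siAxl orange). PLA2G16 passes PTGS2, PTGES and PTGES2 in siAxl, and PTGES and HPGD shift left.

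Ratios of levels per kilobase within a library show how the steps stood to each other. PLA2G16 was 5.42 and 4.76 times PLA2G4A in the siCt libraries and 14.6 and 15.2 times in the siAxl libraries. PTGS2 was 26.6, 25.6, 26.6 and 18.2 times PTGS1 in siCt 1, siCt 2, siAxl 1 and siAxl 2, so that ratio overlapped between the groups. PTGES3 was 5.89 and 4.47 times PTGES in siCt and 9.08 and 9.16 times in siAxl. PTGES was 14.1 and 15.1 times HPGD in siCt and 13.1 and 14.1 times in siAxl, so the synthase and the degrading enzyme kept a similar ratio in all 4 libraries while both fell.

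The genes whose pattern was most like that of PLA2G16 were sought by Euclidean distance over the 4 libraries, on log2 values centred on the siCt mean. The 5 nearest of the genes tested were FAM115C (distance 0.0683), SCD5 (0.138), ADAMTS9-AS2 (0.138), TMCO1 (0.138) and AC135048.13 (0.158). FAM115C had 138 and 124 normalized counts in siCt and 385 and 377 in siAxl. SCD5, a stearoyl-CoA desaturase, had 698 and 591 in siCt and 1674 and 1819 in siAxl. TMCO1, a calcium channel of the endoplasmic reticulum, had 1250 and 1060 in siCt and 3389 and 3664 in siAxl. With only 4 libraries in 2 groups, this likeness is mostly a matter of equal log2 fold change (1.44 to 1.61).

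Short words shared with siRNAs can be found in 3′ UTRs, and the 6-base word ACATCA was looked up because earlier results of these data had brought it up. PLA2G16 holds 1 copy, beginning at position 35 of a 1750-base 3′ UTR (longest 3′ UTR in GENCODE 29), shown with the word in capitals.
PLA2G16 site: cgatgactttatACATCAagggggtcttgt
PLA2G4A and PTGES hold 1 copy each and HPGD 2, and the other 6 genes hold 0. The longer word CACATCA was found 0 times in all 10 genes. It was held by 11.6% of the genes tested with a 3′ UTR (median log2 fold change 0.10 beside -0.01 for the rest). Among 12988 genes tested with a 3′ UTR, 32.5% held ACATCA, with a median log2 fold change of 0.04 beside -0.02 for the rest. Of the 10 genes, those holding ACATCA were PLA2G16, which was higher in siAxl, PTGES and HPGD, which fell, and PLA2G4A, which was not called. The siRNA sequences are not given in the sources used here, and the part of the word in the PLA2G16 values was not tested.

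The prostaglandin pathway was also examined with wider gene lists. The lists of synthesis, receptors, transport and breakdown, and intracellular phospholipases hold some of the 10 genes again, so their shares recount those genes. In the list of prostanoid synthesis 10 of 13 genes were tested, of which 2 rose and 3 fell, beside the 18.7% of all genes that were called. The 3 that fell, PTGS2, PTGES and PTGES2, are all among the 10 genes described above, and so are PTGS1 and PTGES3 of this list. TBXAS1, the thromboxane synthase, had 909 and 864 normalized counts in siCt and 1259 and 1187 in siAxl, and it rose to 138% (log2 fold change 0.46, SE 0.07, limma adjusted p = 0.00816). FAM213B, a prostamide and prostaglandin F synthase, rose from 1937 and 1856 to 2241 and 2209 normalized counts (log2 fold change 0.23, limma adjusted p = 0.0383), a call that was lost under 6 of 12 alternatives, scaling by library size among them.

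The prostaglandin D and prostacyclin branches were close to silent. HPGDS had 0 reads in each of the 4 libraries, PTGDS had 1 read in all, and PTGIS, the prostacyclin synthase, had at most 4 reads in a library. A count of 0 allows up to 3 reads, which covers counting error only. AKR1B1, an aldose reductase that also makes prostaglandin F2α, had the highest level per kilobase of the synthesis list, at 5986 in siCt and 5572 in siAxl, above PTGES3.

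**Figure D4:**
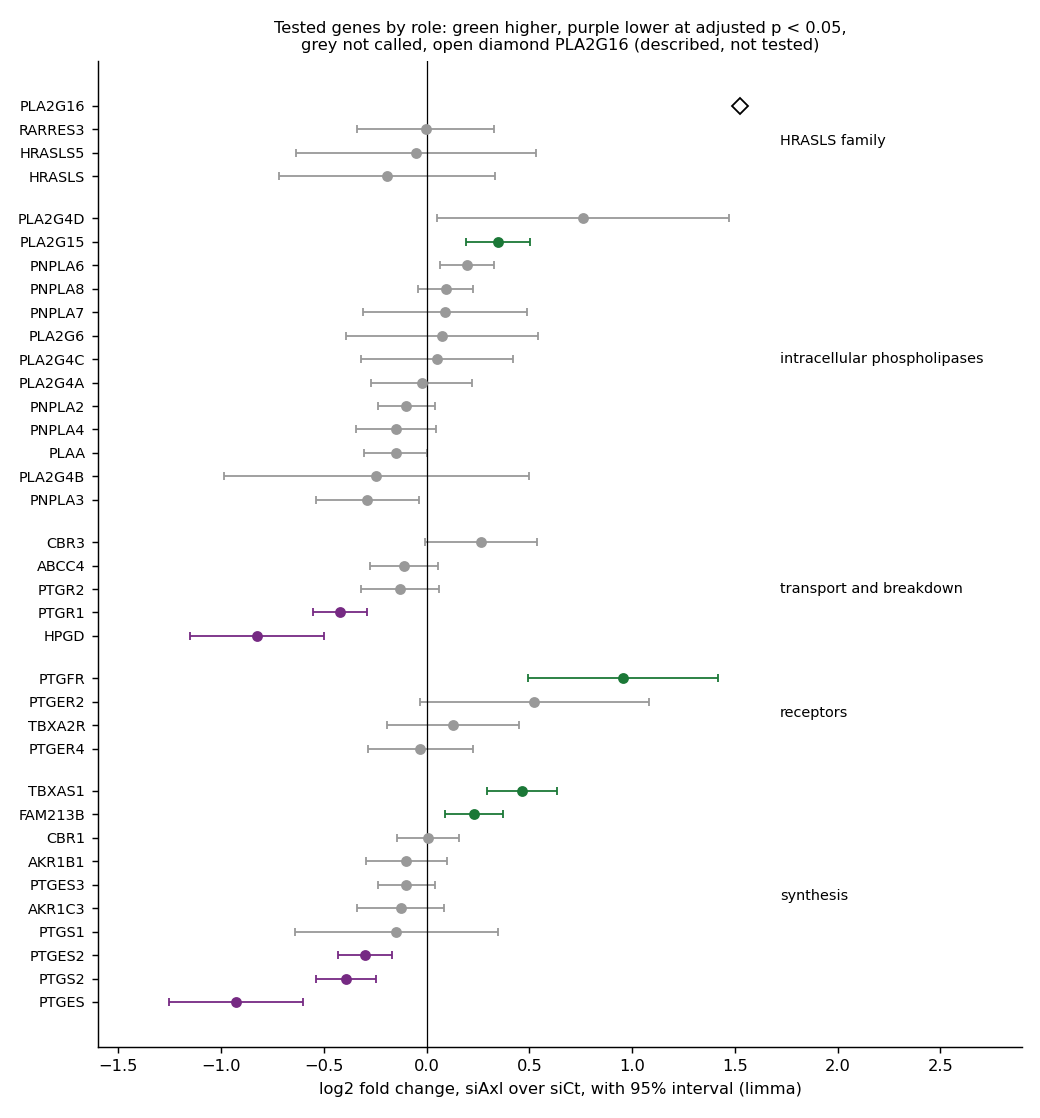
Log2 fold change of siAxl over siCt for the tested genes of 5 lists, grouped by role, with 95% intervals from limma. Green points rose, purple points fell and grey points did not pass the test, and PLA2G16 (1.53) is an open diamond with no interval because it was picked for its rise.

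Among the 9 prostanoid receptors 4 were tested, of which 1 rose and 0 fell, a share called of 25% beside 18.7% of all genes tested. PTGFR, the prostaglandin F receptor, had 40.3 and 39.0 normalized counts in siCt and 85.5 and 70.7 in siAxl. It rose to 197%, with a log2 fold change of 0.95 (SE 0.20, limma adjusted p = 0.0188), but was not called by DESeq2 (adjusted p = 0.0586). Without siAxl 1, and when all genes with a read were tested (adjusted p = 0.0631), it was not called either. PTGER4 (93.8 per kilobase in siCt) and TBXA2R, the thromboxane receptor (51.6), had the highest levels per kilobase among the receptors. PTGDR had 0 reads, and PTGER1, PTGER3, PTGDR2 and PTGIR were under the filter on low counts. PTGER2, the other receptor coupled to cyclic AMP, had 33.6 and 27.1 normalized counts in siCt and 47.6 and 40.3 in siAxl, with a log2 fold change of 0.52 that did not pass the test (limma adjusted p = 0.169).

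In the list of prostaglandin transport and breakdown 6 of 7 genes were tested, of which 0 rose and 2 fell, a share called of 33.3% beside 18.7% of all genes tested (7.91% as lower). Besides HPGD, which was described above and is counted here again, PTGR1 fell, a reductase that acts on the product of HPGD. PTGR1 had 2982 and 3053 normalized counts in siCt and 2245 and 2264 in siAxl, and fell to 74.7% (log2 fold change -0.42, SE 0.06, limma adjusted p = 0.00490). HPGD and PTGR1 were called under all 12 alternatives, HPGD only just when all genes with a read were tested. PTGR2, another reductase of the same product, had 968 and 940 normalized counts in siCt and 921 and 826 in siAxl and did not pass the test (log2 fold change -0.13, limma adjusted p = 0.310). CBR1, a carbonyl reductase, had the highest level per kilobase of the list, at 1167 in siCt and 1171 in siAxl.

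Among the intracellular phospholipases 13 of 15 were tested, of which 1 rose and 0 fell. The share called was 7.69%, beside 18.7% of all genes tested. PLA2G4A and PLA2G6, described above, are among the 13. PLA2G15, the lysosomal phospholipase, rose from 1060 and 1061 normalized counts to 1321 and 1380 (log2 fold change 0.35, SE 0.07, limma adjusted p = 0.0149), a call that was lost without siAxl 2. PNPLA2, the adipose triglyceride lipase, and PNPLA6 had the highest levels per kilobase of this list, at 1404 and 801 in siCt. Of the 17 secreted phospholipases and hydrolases of platelet-activating factor, 6 were tested and 7 had no read in any library, and the share called was 16.7% beside 18.7% of all genes tested. PLA2R1, a receptor for secreted phospholipases, was the 1 that rose, from 399 and 368 to 525 and 528 normalized counts (log2 fold change 0.46, limma adjusted p = 0.0170). Its call was lost without siAxl 1, without siAxl 2 and when all genes with a read were tested. PAFAH1B3 and PAFAH1B2 had the highest levels per kilobase of that list over the 4 libraries, although PAFAH1B1 was above PAFAH1B2 in siAxl.

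**Figure D5:**
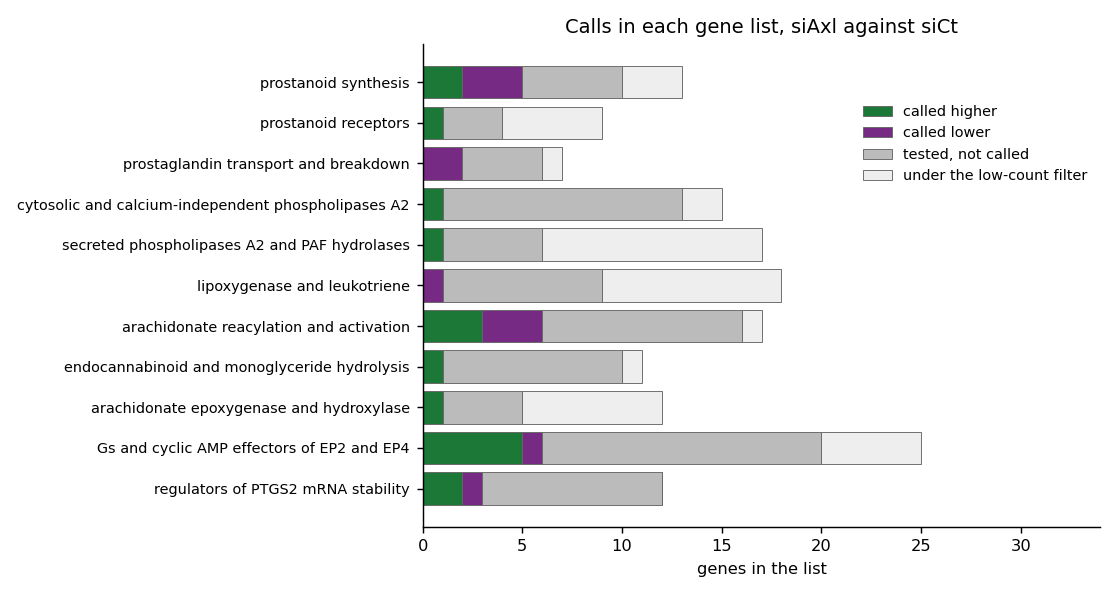
Number of genes in each list that were called higher (green), called lower (purple), tested and not called (grey) or under the filter on low counts (pale). The prostanoid synthesis bar has 2 higher and 3 lower of 10 tested, and the 3 lower are PTGS2, PTGES and PTGES2. Most bars are grey or pale.

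Free arachidonic acid can also enter other routes or return to the membrane. In the lipoxygenase and leukotriene list 9 of 18 genes were tested, and 1 fell, a share called of 11.1% beside 18.7% of all genes tested. This was ALOX5AP, the protein that presents arachidonic acid to 5-lipoxygenase, with 94.9 and 88.8 normalized counts in siCt and 49.5 and 59.9 in siAxl (log2 fold change -0.74, limma adjusted p = 0.0325). It was not called by DESeq2 (adjusted p = 0.119), without siAxl 1, without siAxl 2 or when all genes with a read were tested. LTA4H and MGST3 had the highest levels per kilobase of this list.

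In the list of arachidonate reacylation and activation 16 of 17 genes were tested, of which 3 rose and 3 fell, a share called of 37.5% beside 18.7% of all genes tested. ACSL1, a long-chain acyl-CoA synthetase, fell from 6270 and 6981 to 4602 and 4868 normalized counts (log2 fold change -0.48, limma adjusted p = 0.00605), and LPCAT1, a lysophospholipid acyltransferase, from 6934 and 7574 to 5471 and 5319 (log2 fold change -0.43, limma adjusted p = 0.00652). AGPAT2 and AGPAT5, acyltransferases of phosphatidic acid synthesis, rose by log2 fold changes of 0.30 and 0.31 (limma adjusted p = 0.0164 and 0.0176), and both calls were lost without siAxl 1 and without siAxl 2. ACSL4, which prefers arachidonic acid, and ACSL5 had the highest levels per kilobase, at 2482 and 2421 in siCt and 2390 and 2386 in siAxl.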

How the data were processed

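RNA from 2 siCt and 2 siAxl libraries of MDA-MB-231 cells was sequenced by the authors on an Illumina instrument. The submitters' processing notes name CASAVA 1.8, TopHat2 2.0.10, HTSeq 0.5.3, DESeq2 1.4.5 and GRCh37. The strand setting and annotation release are not given in the sources used here. The authors deposited 1 table of normalized counts, a signal obtained by dividing the reads of each gene by its library's DESeq2 size factor. The mean and the comparison columns deposited by the authors (log2 fold changes, standard errors, Wald scores, p-values) were not used, and per-sample columns not used numbered 0. In each library 100% of values were whole multiples of 1 read within 0.01 read, so reads were recovered by division. They summed to 44281982 and 39574387 in siCt and to 44585773 and 44559547 in siAxl. Intervals for counts cover counting error only.

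The test was limma 3.58.1 (R 4.3.3, eBayes with an intensity trend, no covariates) on log2(normalized count + 1). Genes passing filterByExpr of edgeR 4.0.16 on the recovered reads were tested (16064, leaving out 47613), with Benjamini-Hochberg adjustment over all of them and calls at an adjusted p under 0.05. Fits were tested on simulated data. With 2 libraries per group there is no two-sided permutation p below 0.333, and limma pools the spread over genes. Sampling noise was exceeded within both groups (chi-square per gene 21.9 between siCt 1 and siCt 2 and 19.7 between siAxl 1 and siAxl 2). Alternatives were pseudocounts of 0.5 and 8, all genes with a read, library-size and TMM scaling, edgeR and DESeq2 (1.42.0) on recovered reads, the replicate number as a block, and leaving out each library.

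The 10 genes, the gene lists and the 3′ UTR word were chosen with earlier results of these data known. From each list the text names at most 4 called genes, by smallest adjusted p, and the 2 with the highest mean level per kilobase over the 4 libraries. PTGER2, PTGR2, KHSRP, ABHD12, PAFAH1B1, PTGIS, PTGDS, HPGDS and the receptors under the filter were added after their values were seen. Exon lengths, 3′ UTRs and overlaps came from GENCODE 29 by Ensembl identifier, on GRCh38, with a length for all 10 genes. Promoters came from RefSeq, matched by symbol for all 10. Protein sequences were not used here.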

Additional observations from a re-analysis of the deposited data

How the results depend on the processing

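PLA2G16 kept its direction under all 12 alternatives, at 1.44 to 1.61 on the log2 scale, and PTGS2, PTGES and HPGD stayed called under all of them. When all genes with a read were tested, PTGES and HPGD were near the threshold. The limma adjusted p was then 0.0396 for PTGS2, 0.0486 for PTGES and just under 0.05 for HPGD. PTGES ranged from -1.15 to -0.70 and HPGD from -0.9995 to -0.65 (log2 fold change). The number of the 9 other genes called was 4, and 3 without siAxl 1 or without siAxl 2, where PTGES2 was lost. Directions that did not pass the test turned when 1 library was left out: PLA2G6 ranged from -0.21 to 0.36 (below 0 without siCt 2, at -0.08, and without siAxl 1), PTGS1 from -0.44 to 0.14 (above 0 without siAxl 1) and PTGER4 from -0.11 to 0.053 (above 0 without siCt 1, at 0.04, and without siAxl 1). The causes were not tested.

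Testing all genes with a read called 1097 genes in place of 3006, and 12 of the further pathway genes in place of 24. Of those 24 calls, 9 held under every alternative. Leaving out 1 library gave 1301 (without siAxl 1) to 3900 (without siCt 1) calls over all genes, with 1518 without siAxl 2, and 12 (without siAxl 1) to 34 (without siCt 1) further genes. Scaling by library size alone put 46.8% of calls in the higher direction, against 57.7%, and moved no member's call. edgeR called 3122 genes and DESeq2 2596 of the 12918 it gave an adjusted p.

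The labels number the libraries 1 and 2 in both groups but tie no number to a shared culture or day. The deviations of same-numbered libraries had a correlation of 0.271 over 16064 genes, with 2 pairs only. With the replicate number as a block, 7310 genes were called in all, 55 of the further genes and 5 of the 9 (PTGES3 was added, adjusted p = 0.0107). At this depth genes such as PTGIS and PTGER1, with at most 4 reads in a library, could not be tested.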

Other observations

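Further lists around the pathway held genes not yet described. In the list of Gs and cyclic AMP effectors, the route through which EP2 and EP4 act, 20 of 25 genes were tested, of which 5 rose and 1 fell, a share called of 30% beside 18.7% of all genes tested. GNAS, the stimulatory G protein subunit, had 34734 and 33999 normalized counts in siCt and 41560 and 41520 in siAxl (log2 fold change 0.27, limma adjusted p = 0.0188), and together with PRKAR1A it had the highest level per kilobase of the list. PDE4A, a phosphodiesterase that breaks down cyclic AMP, rose from 2357 and 2371 to 2946 and 2873 (log2 fold change 0.30, limma adjusted p = 0.0141). PRKAR2B, a regulatory subunit of protein kinase A, fell from 259 and 260 to 178 and 158 (log2 fold change -0.63, limma adjusted p = 0.0151), and the subunit PRKAR1B rose (log2 fold change 0.35, limma adjusted p = 0.0242). PRKAR1B shares 383 of its 4491 exon bases with DNAAF5 on the opposite strand, so its value is uncertain. All 4 of these calls were lost without siAxl 2, and those of GNAS, PDE4A and PRKAR1B also without siAxl 1.

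All 12 regulators of PTGS2 mRNA stability were tested, of which 2 rose and 1 fell, a share called of 25% beside 18.7% of all genes tested. CELF2, an RNA-binding protein known to stabilize PTGS2 mRNA and block its translation, rose from 967 and 735 to 1773 and 1791 normalized counts (log2 fold change 1.08, SE 0.12, limma adjusted p = 0.00328). ZFP36L1, a decay factor that binds AU-rich elements, rose from 12301 and 11122 to 18521 and 18528 (log2 fold change 0.66, SE 0.06, limma adjusted p = 0.00219), while its relative ZFP36L2 fell from 2510 and 2621 to 1785 and 1724 (log2 fold change -0.55, SE 0.06, limma adjusted p = 0.00304). These 3 genes were called under all 12 alternatives. Over the 4 libraries RBM3 and ZFP36L1 had the highest levels per kilobase of the list, although in siCt KHSRP (2558 per kilobase) was above ZFP36L1 (2270).

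In the list of epoxygenases and hydroxylases 5 of 12 genes were tested, with a share called of 20%, and CYP2U1, which hydroxylates arachidonic acid, rose from 913 and 913 to 1266 and 1389 normalized counts (log2 fold change 0.54, limma adjusted p = 0.00553). CYP1B1 and EPHX1 had the highest levels per kilobase there. In the list of endocannabinoid and monoglyceride hydrolysis 10 of 11 genes were tested, with a share called of 10%, and GDE1, a glycerophosphodiesterase, rose from 3865 and 4045 to 5097 and 5562 (log2 fold change 0.43, limma adjusted p = 0.00694). GDE1 shares 765 of its 4416 exon bases with AC130456.6 on the opposite strand, a gene with no count here, so its value is uncertain. ABHD4 and GDE1 had the highest levels per kilobase there over the 4 libraries, although in siCt ABHD12 (946 per kilobase) was above GDE1 (896). Over the 12 lists 104 of the 150 genes that are not among the 10 were tested, of which 17 rose and 7 fell. Their share called was 23.1%, beside 18.7% of all genes tested, and their median log2 fold change was 0.04.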
